A study of Rattus norvegicus with 9 samples.

Results

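The prostaglandin genes of primary rat osteoblasts were followed across osteogenic cultures that received no addition, thrombin, or thrombin together with the MEK inhibitor PD0325901 (PD03). They were chosen by name, as the 10 genes Ptgs1, Ptgs2, Ptges, Ptges2, Ptges3, Ptgis, Hpgd, Ptger2, Ptger4 and Ptgfr. Of these, 8 had a row among the 19085 genes listed, and all 8 were among the 13256 genes tested. Ptges and Ptgis were not matched to a row by name and were not analysed here. The cells came from the skull vault of newborn male Sprague-Dawley rats, although the tissue field of the labels gives the knee, and were used at first passage. Every group, the control included, spent 7 days in induction medium with fetal bovine serum, β-glycerophosphate, ascorbic acid and dexamethasone, a glucocorticoid. Control cells received that medium alone, Thrombin cells received 20 U/mL thrombin in addition, and PD03 cells received 20 U/mL thrombin with 0.1 µM PD0325901 as the series design gives it (a protocol among the labels writes mM). No group received PD0325901 without thrombin, so the PD03 libraries set against the control libraries carry the difference of both agents. Each group had 3 libraries of polyadenylated RNA. The study's methods call the samples of a group independent, without saying whether that means separate animals or separate cultures, and p-values measure the spread between these libraries.

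Prostaglandins are lipid signals made from arachidonic acid, which phospholipases A2 free from membranes. The cyclooxygenases encoded by Ptgs1 and Ptgs2 turn it into prostaglandin H2, from which terminal synthases make prostaglandin E2, prostacyclin and others. Ptgs1 is known as the more constant enzyme and Ptgs2 as the one that cytokines, growth factors and serum induce quickly. Prostaglandin E2 is the main prostaglandin studied in bone, where osteoblasts both make it and respond to it. It acts through 4 EP receptors, of which those encoded by Ptger2 and Ptger4 raise cyclic AMP, and it is inactivated by the dehydrogenase encoded by Hpgd. Thrombin is a clotting protease that also signals through protease-activated receptors, and PD0325901 blocks MEK, the kinase that activates Erk1/2.

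The libraries held 15447832 to 19841468 counted reads. Changes were tested with edgeR's quasi-likelihood test on the counts, fitted over all 13256 genes with Benjamini-Hochberg adjustment. A gene was called where the adjusted p was under 0.05 and the log2 fold change exceeded 0.58 in size. Col1a1, the main collagen gene of bone, took 4.18% to 5.05% of the reads in Control and Thrombin and 6.78% to 6.96% in PD03. Of 8 osteoblast markers, 5 averaged at least 1 CPM (a gene's counts scaled to library size) over the 9 libraries, but Bglap and Ibsp, which mark mature osteoblasts, had only 22 and 2 counts over all 9 libraries. Alpl, the alkaline phosphatase gene, averaged 1.67 ± 0.815 CPM in Control, 0.345 ± 0.0145 in Thrombin and 3.11 ± 0.636 in PD03 (SD, n = 3). With thrombin, 1 osteoblast marker was called higher and 1 lower; in PD03 against thrombin 2 were called higher and 2 lower, and in PD03 against control 2 were called higher. Mast cell genes had 1 of 5 with a row and none tested, with a summed level of at most 0.648 CPM. Endothelial genes, 3 of 5 with a row, summed to 6.31 to 8.51 CPM without PD03 and 11.1 to 12.6 CPM with it, mostly from Tek. In PD03, 2 were called higher against thrombin, Tek and Kdr, and 1 against control, Kdr. Kdr had 158 counts over the 9 libraries, and Pecam1 had 43 and was not tested. Smooth muscle genes, which fibroblast-like cells also use, summed to 806 to 1003 CPM without PD03 and 2008 to 2045 CPM with it, and 4 of 5 were called higher against either group. Cartilage genes were called higher for 3 and lower for 1 of 5 with thrombin, higher for 1 in PD03 against thrombin, and higher for 4 and lower for 1 in PD03 against control. Over all genes, 2.62% were called higher and 5.44% lower with thrombin, 9.61% and 6.31% in PD03 against thrombin, and 4.9% and 4.07% in PD03 against control. The part of these marker differences in the values of the prostaglandin genes was not tested.

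With thrombin, 2 of the 8 prostaglandin genes were called higher, Ptgs1 and Ptgs2, where 2.62% of all genes were. Hpgd was the 1 member called lower, where 5.44% of all genes were. By adjusted p alone, 4 of the 8 passed, against a background of 28.7%. When PD03 was added to thrombin, the same 3 genes were called in the opposite direction. Ptgs1 and Ptgs2 were called lower, as were 6.31% of all genes, and Hpgd was called higher, as were 9.61% of all genes. By adjusted p alone 4 of 8 passed, close to the 49.8% of all genes. Against control, 2 members were called lower in PD03 (background 4.07%), again Ptgs1 and Ptgs2, and 0 were called higher (background 4.9%). By adjusted p alone 4 of 8 passed against control, close to the background of 39.9%, and 1 of them, Ptgfr, was the only member higher at an adjusted p under 0.05. The comparisons share libraries, so a fall from the Thrombin level and a rise to it use the same Thrombin values. The median log2 fold change of the members was 0.060 with thrombin, -0.18 in PD03 against thrombin and -0.24 in PD03 against control. Over all genes tested it was -0.006, 0.011 and -0.004.

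**Figure D1:**
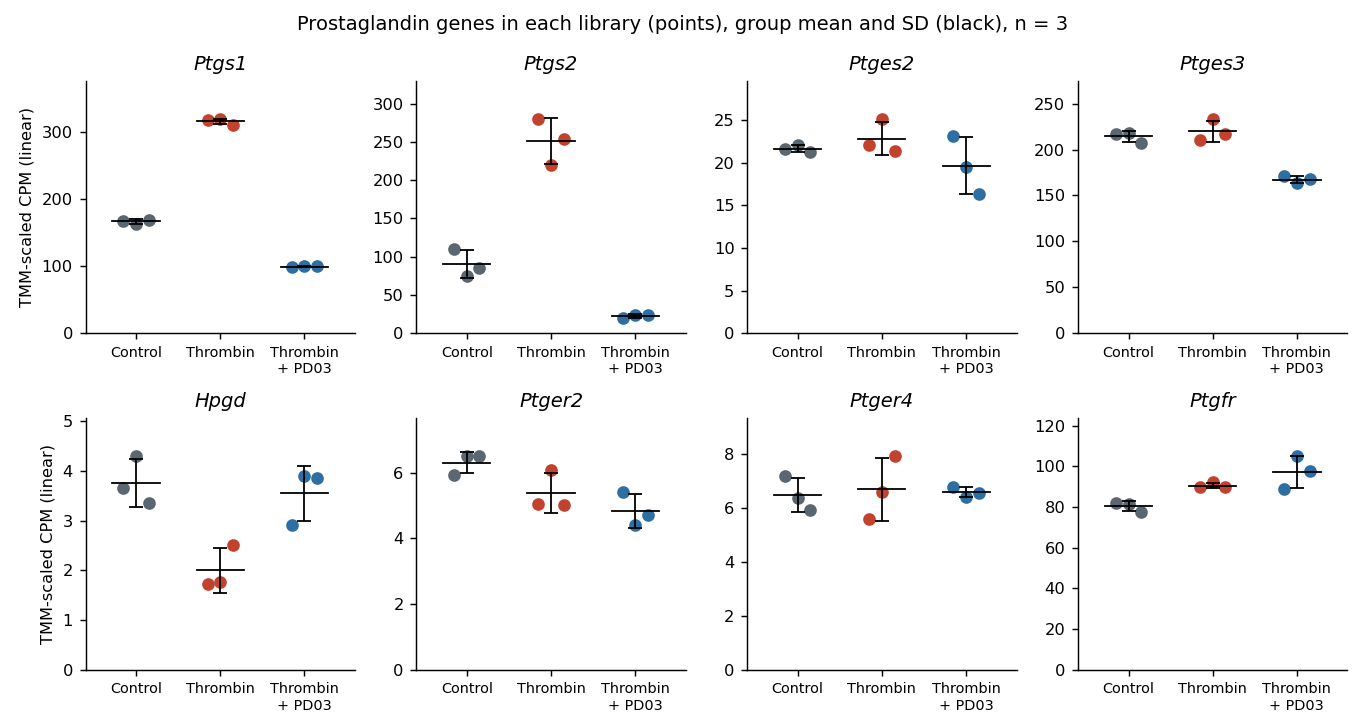
Level of each prostaglandin gene (y axes, CPM after TMM scaling, linear from 0) in the Control, Thrombin and Thrombin + PD03 libraries. Points are the 3 libraries of a group, black bars the mean and SD; Ptgs1 and Ptgs2 separate all 3 groups, and Hpgd is lowest in the Thrombin libraries.

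**Figure D2:**
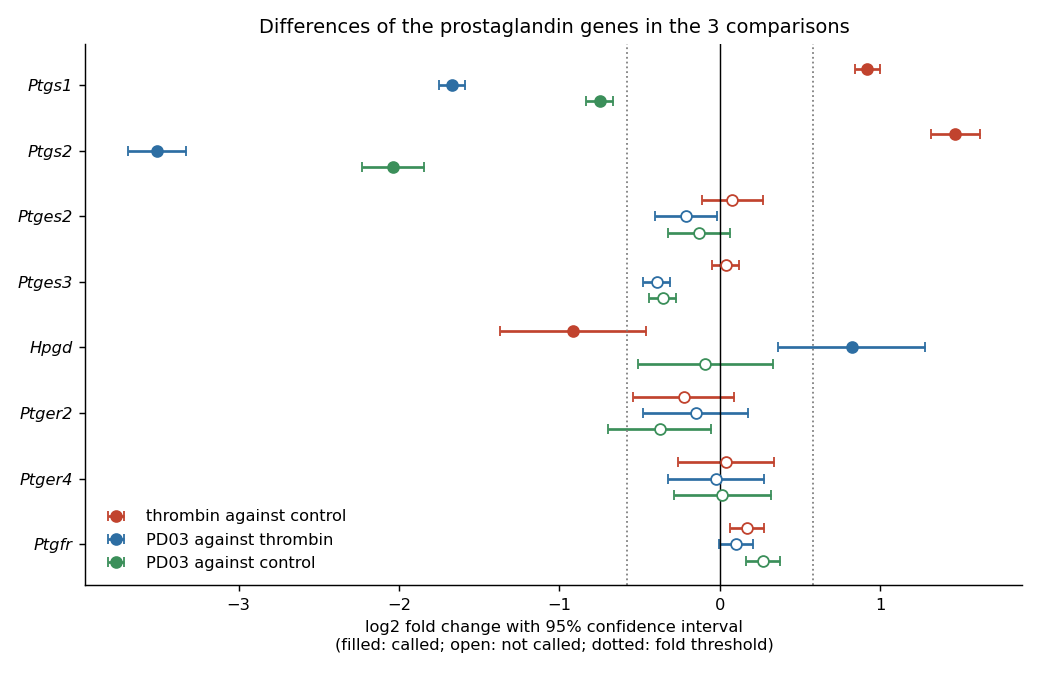
Log2 fold change (x axis) with its 95% confidence interval for each gene in the 3 comparisons, given by colour. Filled points were called and open points were not, and the dotted lines mark 0.58 in each direction; the filled points belong to Ptgs1, Ptgs2 and Hpgd.

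Among the members, the cyclooxygenase genes carried the largest differences in both PD03 comparisons, and Ptgs2 the largest with thrombin, where Ptgs1 and Hpgd differed by about the same size. Ptgs1 (ENSRNOG00000007415) stood at 168, 163 and 169 CPM in the 3 Control libraries. It stood at 318, 318 and 311 CPM with thrombin. In the PD03 libraries it stood at 97.9, 99.7 and 99.8 CPM. The libraries of a group lay close together, with a coefficient of variation of 1.04% to 2.00%, and no value of one group reached those of another. Ptgs1 was 1.89-fold higher with thrombin than in control (log2 fold change 0.92, SE 0.038, adjusted p = 4.4e-23 by edgeR). It was 3.18-fold lower in PD03 than in thrombin (log2 fold change -1.67, SE 0.040, adjusted p = 4.9e-32) and 1.68-fold lower than in control (log2 fold change -0.75, SE 0.041, adjusted p = 4.0e-19). In these bulk libraries, fewer cells that express a gene and less RNA per cell cannot be told apart.

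Ptgs2 (ENSRNOG00000002525), the inducible cyclooxygenase known as COX-2, had a larger log2 fold change than Ptgs1 in every comparison. Its Control libraries stood at 110, 74.9 and 85.5 CPM. Its Thrombin libraries stood at 280, 219 and 254 CPM. Its PD03 libraries stood at 19.7, 23.6 and 23.1 CPM. The groups did not overlap, and the Control libraries varied most, by 20.1% of their mean, because replicate 1 stood above the other two. Ptgs2 was 2.77-fold higher with thrombin than in control (log2 fold change 1.47, SE 0.076, adjusted p = 6.1e-20). It was 11.4-fold lower in PD03 than in thrombin (log2 fold change -3.51, SE 0.090, adjusted p = 6.7e-31). Counted from the most negative, this was the 17th log2 fold change of the 13256 genes tested. In PD03, Ptgs2 also lay 4.11-fold below control (log2 fold change -2.04, SE 0.095, adjusted p = 2.5e-21). Without Control replicate 1, the log2 fold change was 1.65 with thrombin and -1.86 in PD03 against control. Taking Col1a1 out of the library sizes left the log2 fold changes of Ptgs2 at 1.47, -3.52 and -2.05. A RefSeq antisense gene, Ptgs2os, lies close to Ptgs2 without overlapping it.

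Myeloid genes mark cells that also use cyclooxygenases. Their summed level, nearly all from Cd14, was 20.4 to 23.7 CPM in Control, 29.0 to 32.8 in Thrombin and 17.5 to 18.6 in PD03. Of 7 genes, 2 were tested, 0 were called with thrombin, 1 was called lower in PD03 against thrombin, and 1, Csf1r, was called higher in PD03 against control, where Ptgs1 and Ptgs2 were lower. Only Cd14 of the 7 averaged at least 1 CPM over the 9 libraries, at 20.5 ± 1.78, 29.3 ± 1.74 and 15.7 ± 0.437 CPM in the 3 groups, and fibroblast-like cells also express it. Ptprc, which all leukocytes carry, had 14 counts over the 9 libraries, and Tyrobp had 17.

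The promoters of the 3 called genes are shown because the cyclooxygenase genes moved together and Hpgd moved against them. The 250 bases before the annotated start were read from RefSeq on assembly GRCr8, where 8 of the 10 genes had an entry. Both strands were searched for TATAAA (the TATA box), CACGTG (an E-box), TGACG (the core of the cyclic AMP response element), TGANTCA (AP-1), TTNCNNAA (C/EBP), GGNNNTTCC (NF-kappaB), GCGNGGGCG (Egr1) and TGTGGT (Runx), and capitals mark a match. Ptgs2 lies at chr13:64713813-64714062 on the plus strand, Ptgs1 at chr3:39981169-39981418 on the plus strand, and Hpgd at chr16:39034832-39035081 on the minus strand.
Ptgs2: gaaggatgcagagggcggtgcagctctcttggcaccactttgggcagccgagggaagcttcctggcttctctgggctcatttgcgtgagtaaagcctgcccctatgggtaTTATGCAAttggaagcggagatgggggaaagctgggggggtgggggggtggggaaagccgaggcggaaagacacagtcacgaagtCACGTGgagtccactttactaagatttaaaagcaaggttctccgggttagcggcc
Ptgs1: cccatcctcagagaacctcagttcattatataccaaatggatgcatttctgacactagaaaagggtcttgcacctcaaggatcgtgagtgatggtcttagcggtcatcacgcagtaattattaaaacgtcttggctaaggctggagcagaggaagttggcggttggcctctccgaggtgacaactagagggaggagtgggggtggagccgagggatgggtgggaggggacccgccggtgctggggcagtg
Hpgd: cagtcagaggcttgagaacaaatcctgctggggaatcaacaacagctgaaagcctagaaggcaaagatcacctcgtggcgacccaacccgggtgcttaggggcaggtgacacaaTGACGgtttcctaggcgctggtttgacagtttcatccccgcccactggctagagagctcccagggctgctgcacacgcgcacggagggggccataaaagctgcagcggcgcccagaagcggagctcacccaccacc
The Ptgs2 sequence held the E-box CACGTG, starting 55 bases before the start, and TTATGCAA, a C/EBP match on the minus strand that starts 140 bases before it. Of 33469 promoters of the same length, 5.59% held the E-box and 37.2% a C/EBP match. The Ptgs1 sequence held none of the 8 motifs, so it shared no match with Ptgs2. The Hpgd sequence held TGACG, 136 bases before its start, which 18.2% of all promoters held. The other motifs were held by 12.9% (TATAAA), 6.34% (TGANTCA), 15.4% (GGNNNTTCC), 4.29% (GCGNGGGCG) and 14.5% (TGTGGT) of promoters. A match describes letters only, and a motif without a match is absent from this window alone. The GC content was 57.2% for Ptgs2, 54.4% for Ptgs1 and 60.0% for Hpgd, against a median of 51.2% over all promoters.

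Because FPKM is scaled by gene length, the cyclooxygenase genes could be set beside each other within a library. Ptgs1 exceeded Ptgs2 in all 9 libraries. The ratio of Ptgs1 to Ptgs2 was 2.39, 3.42 and 3.11 in Control, 1.79, 2.28 and 1.93 in Thrombin, and 7.84, 6.64 and 6.79 in PD03. Their summed FPKM was 83.0 ± 5.78 in Control, 174 ± 7.07 in Thrombin and 38.7 ± 0.818 in PD03 (SD, n = 3). Ptgs2 made up 25.5% ± 3.57 of that sum in Control, 33.5% ± 2.77 in Thrombin and 12.4% ± 0.968 in PD03. No library of one group reached the share of another group, and the nearest were Control replicate 1 at 29.5% and Thrombin replicate 2 at 30.5%. The share was higher by 8.03 percentage points with thrombin, and differed by -21.1 points in PD03 against thrombin and by -13.0 points in PD03 against control. Each of the 3 differences gave p = 0.1 in a two-sided exact permutation test, the smallest p that 3 against 3 libraries can give, so none could pass 0.05.

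**Figure D3:**
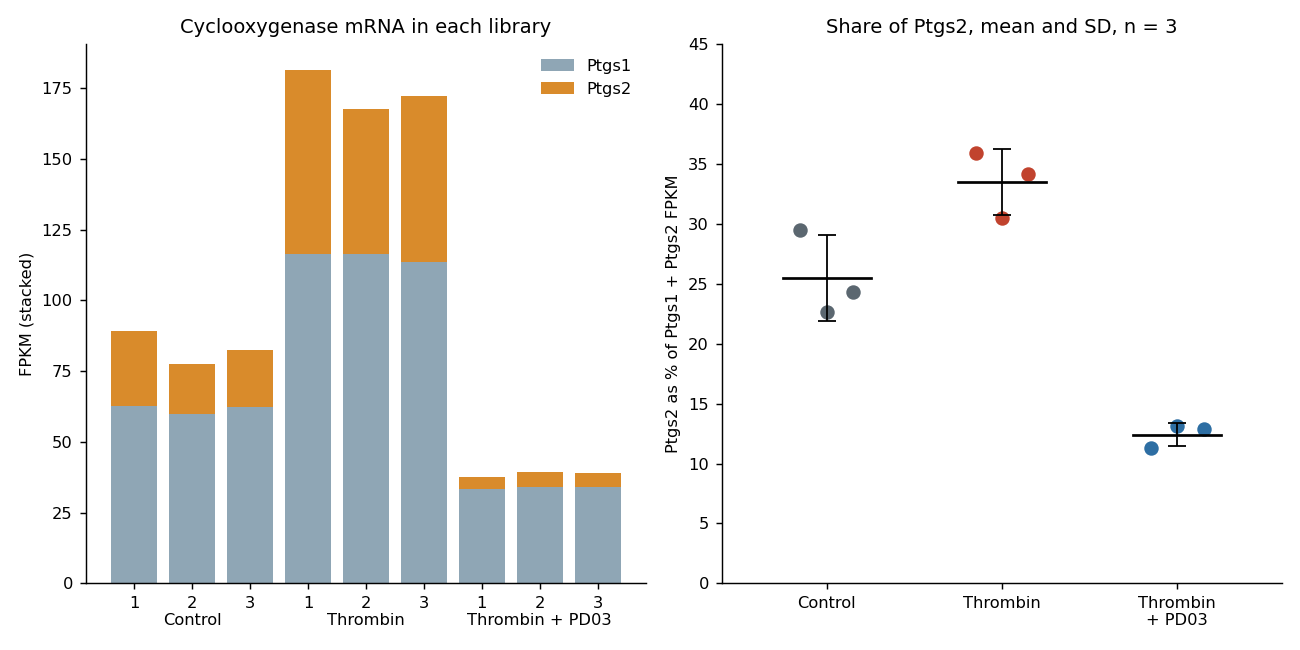
Left, FPKM of Ptgs1 and Ptgs2 stacked for each library; right, Ptgs2 as a percent of their sum, with points for libraries and black bars for mean and SD (n = 3). The stacks are tallest with thrombin, and the Ptgs2 share lies between 11.3% and 13.1% in the PD03 libraries and at 22.6% or above in all others.

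The prostaglandin E synthase genes were called in no comparison. Ptges3 (ENSRNOG00000002642), which encodes the cytosolic synthase also known as the Hsp90 co-chaperone p23, stood at 217, 219 and 208 CPM in Control. It stood at 210, 233 and 217 CPM with thrombin and at 171, 163 and 168 CPM in PD03. The PD03 libraries lay below all others, whereas Control and Thrombin overlapped. Its log2 fold change was 0.037 with thrombin (SE 0.041, adjusted p = 0.56), -0.39 in PD03 against thrombin (SE 0.042, adjusted p = 1.0e-10) and -0.36 in PD03 against control (SE 0.042, adjusted p = 2.3e-09). Both PD03 differences passed by adjusted p but were smaller than the fold threshold. Reads may also be shared with near copies, since Ptges3l had 203 to 276 counts and Ptges3l1 had 4 to 20 counts per library, and a RefSeq noncoding gene overlaps Ptges3.

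Ptges2 (ENSRNOG00000014050), the membrane-associated synthase, stood at 21.6, 22.2 and 21.3 CPM in Control. It stood at 22.1, 25.1 and 21.5 CPM with thrombin and at 23.2, 19.5 and 16.4 CPM in PD03. The 3 groups overlapped, and PD03 spread most, by 17.3% of its mean. None of its 3 log2 fold changes passed: they were 0.079 (95% confidence interval -0.11 to 0.27), -0.21 (-0.40 to -0.019) and -0.13 (-0.33 to 0.062), with adjusted p of 0.59, 0.062 and 0.29. On library totals in place of TMM the second was -0.31 (adjusted p = 0.0060). A noncoding RefSeq gene overlaps Ptges2 too, so its reads are uncertain where the counting ignored strand.

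Hpgd (ENSRNOG00000010610), the enzyme that starts the breakdown of prostaglandins E2 and F2α, was a low gene that moved against the cyclooxygenases. It had 67, 68 and 53 counts in the Control libraries, 29, 32 and 43 with thrombin, and 55, 60 and 63 in PD03. In CPM these were 3.64, 4.29 and 3.35 for Control, 1.72, 1.75 and 2.51 for Thrombin, and 2.91, 3.89 and 3.86 for PD03. All 3 Thrombin libraries lay below all others, while Control and PD03 overlapped. Hpgd was 1.88-fold lower with thrombin than in control (log2 fold change -0.91, SE 0.23, adjusted p = 0.0016). It was 1.77-fold higher in PD03 than in thrombin (log2 fold change 0.82, SE 0.23, adjusted p = 0.0024). In PD03 against control the log2 fold change was -0.090, with an interval of -0.51 to 0.33 (adjusted p = 0.77). The intervals of the first 2 differences, -1.37 to -0.46 and 0.36 to 1.28, reached below the fold threshold in size, and neither passed when that threshold itself was tested with glmTreat (adjusted p = 0.42 for each).

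The summed levels of several marker lists were also lowest in the Thrombin libraries. Smooth muscle genes summed to 889 to 1003 CPM in Control, 806 to 829 in Thrombin and 2008 to 2045 in PD03, mostly from Acta2 and Smtn. With thrombin these 2 genes had log2 fold changes of -0.25 and -0.31, while Cnn1, Myh11 and Des had 0.56, 0.12 and 0.037. Of the 5 smooth muscle genes, 0 were called with thrombin. Cartilage genes summed to 91.3 to 102, 68.6 to 74.7 and 79.6 to 87.0 CPM. Most of this came from Col2a1, which averaged 84.4, 49.2 and 56.4 CPM in Control, Thrombin and PD03. Col2a1 was called lower with thrombin, while Sox9, Acan and Matn3 were called higher and Col9a1 was not called. Of the mast cell genes only Kit had a row, with 42 counts over the 9 libraries, and it was not tested. Kit reached at most 0.119 CPM in Thrombin, against at least 0.253 CPM in the other groups. The adipocyte and osteoclast sums, also lowest in Thrombin, were likewise each carried by a single gene. Adipocyte genes, mostly Lpl, summed to 202 to 213 CPM in Control, 98.1 to 104 in Thrombin and 155 to 166 in PD03; 2 of 5 were tested, and both were called lower with thrombin and higher in PD03 against thrombin, with 0 called in PD03 against control. These were Lpl and Pparg, whereas the defining genes Adipoq, Plin1 and Fabp4 had 3, 11 and 25 counts over the 9 libraries. Osteoclast genes summed to 132 to 142, 98.7 to 107 and 169 to 178 CPM, nearly all from Ctsk, and Dcstamp and Ocstamp had 1 count each. Of 2 osteoclast genes tested, 1 was called, Ctsk, higher in PD03 against thrombin, and 0 were called with thrombin or in PD03 against control. The part of these cells in the Hpgd values was not tested.

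The receptor genes did not pass the call in any comparison. Ptger2 (ENSRNOG00000050968), which encodes the EP2 receptor, stood at 5.93, 6.50 and 6.51 CPM in Control, 5.06, 6.09 and 5.01 CPM in Thrombin and 5.40, 4.40 and 4.71 CPM in PD03. The Control and Thrombin libraries overlapped, as did Thrombin and PD03, while every PD03 library lay below every Control library. The log2 fold change was -0.22 with thrombin (adjusted p = 0.31), -0.15 in PD03 against thrombin (adjusted p = 0.46) and -0.37 in PD03 against control (95% confidence interval -0.70 to -0.053, adjusted p = 0.057). On library totals in place of TMM, which puts the median over all genes in this last comparison at -0.12, it was -0.49 with an adjusted p of 0.010.

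Ptger4 (ENSRNOG00000013240), which encodes the EP4 receptor, stood at 7.18, 6.38 and 5.94 CPM in Control, 5.59, 6.58 and 7.93 CPM in Thrombin and 6.78, 6.41 and 6.55 CPM in PD03. All groups overlapped, and the Thrombin libraries alone spanned the other two groups. The 3 log2 fold changes were 0.040 (95% confidence interval -0.26 to 0.34), -0.025 (-0.32 to 0.27) and 0.016 (-0.29 to 0.32), and the adjusted p was at least 0.88 in each. With 94 to 136 counts per library, differences smaller than those intervals were not detectable at this depth. Both Ptger2 and Ptger4 are overlapped by noncoding RefSeq genes.

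The EP receptor genes were also compared as shares of one sum, with Ptger1 and Ptger3 added. Ptger1, which couples to calcium, averaged 3.84, 2.98 and 4.05 FPKM in Control, Thrombin and PD03, and Ptger3 had 63 counts over the 9 libraries. By edgeR, Ptger1 had log2 fold changes of -0.35 with thrombin (adjusted p = 0.0025) and 0.54 in PD03 against thrombin (adjusted p = 2.0e-06). Both lay under the fold threshold, and the share of Ptger4 also depends on Ptger1 as part of the sum. Ptger4 made up 31.5% ± 2.69 of the EP receptor FPKM in Control, 36.2% ± 4.15 in Thrombin and 32.9% ± 0.840 in PD03. The groups overlapped, and the two-sided exact permutation p was 0.2, 0.3 and 0.6 for the 3 comparisons.

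Ptgfr (ENSRNOG00000046468), the receptor of prostaglandin F2α, had the highest FPKM of the 3 receptor genes in every group. It stood at 81.9, 81.7 and 77.7 CPM in Control, 89.8, 92.1 and 89.7 CPM in Thrombin and 88.9, 105 and 97.7 CPM in PD03. Every Control library lay below all others, and Thrombin and PD03 overlapped. The log2 fold change was 0.17 with thrombin (SE 0.053, adjusted p = 0.012) and 0.27 in PD03 against control (SE 0.053, adjusted p = 4.8e-05), each under the fold threshold. In PD03 against thrombin it was 0.10 (SE 0.052, adjusted p = 0.11).

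Ordered by FPKM, Ptgs1 led the Control libraries with 61.7 ± 1.50 and Ptges3 followed with 47.5 ± 1.54. Ptgfr had 27.6 ± 0.987 and Ptgs2 21.3 ± 4.48, with the highest Ptgs2 library just under the lowest Ptgfr library. Ptges2 came next with 10.9 ± 0.232, then Ptger2 with 4.81 ± 0.209, Ptger4 with 4.04 ± 0.430 and Hpgd with 2.31 ± 0.292. In Control every neighbour in this order had ranges apart. With thrombin, Ptgs2 rose to the second place with 58.3 ± 7.05 FPKM, behind Ptgs1 with 115 ± 1.76, and only Ptger4 and Ptger2 had overlapping ranges. In PD03, Ptges3 with 34.2 ± 0.767 and Ptgs1 with 33.9 ± 0.347 overlapped at the top. Ptgs2, with 4.81 ± 0.472, then lay below Ptges2 with 9.17 ± 1.60 and above Ptger4 with 3.77 ± 0.105, and Ptger4 and Ptger2 overlapped again. Among the 13256 genes tested, Ptgs2 ranked 3027 by FPKM in Control, 1037 in Thrombin and 7814 in PD03.

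**Figure D4:**
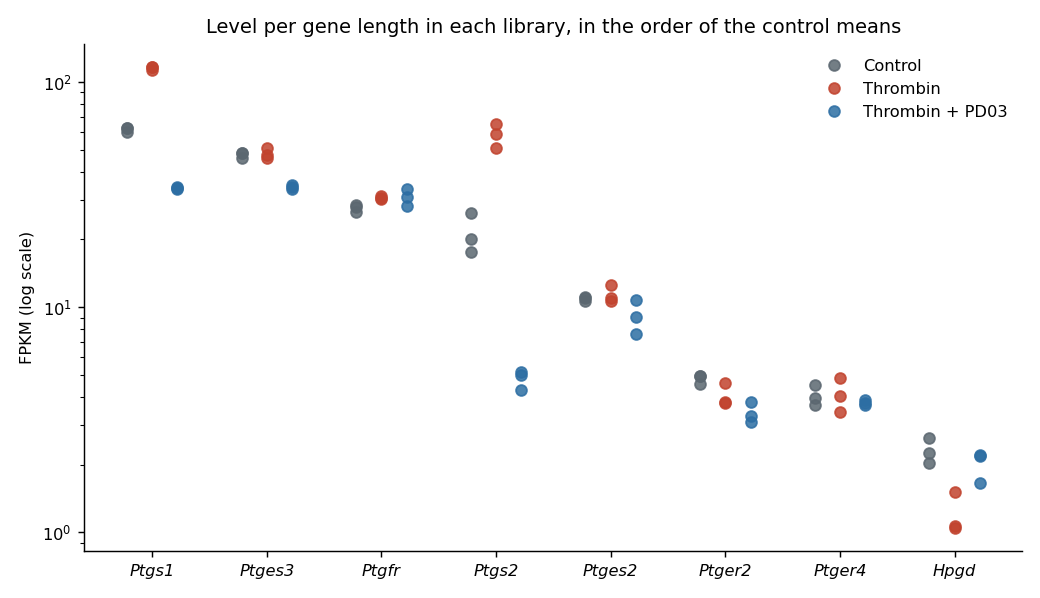
FPKM of each prostaglandin gene (y axis, log scale) in every library, coloured by group and ordered from left to right by the Control mean. Ptgs2 spans the widest range, from 65.1 in a Thrombin library to 4.27 in a PD03 library, and Ptger2, Ptger4 and Hpgd lie lowest in every library.

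The genes whose pattern was most like that of Ptgs2 over the 9 libraries were found among 10274 genes with at least 5 CPM in a group, by Pearson correlation of log2(CPM + 1). The 5 most alike were Cxcl1 (r = 0.997), Xpo1 (r = 0.996), Ncapd3 (r = 0.994), Il33 (r = 0.994) and Hspa8 (r = 0.993). Cxcl1, a neutrophil chemokine, averaged 258 ± 26.9 CPM in Control, 550 ± 6.13 in Thrombin and 103 ± 10.8 in PD03. Il33, a cytokine of the interleukin-1 family, averaged 230 ± 5.21, 426 ± 10.9 and 103 ± 1.02 CPM. Xpo1, a nuclear export receptor, spanned less, with 180 ± 3.54, 213 ± 3.08 and 139 ± 4.15 CPM. Ptgs1 was 34th in that ranking with r = 0.984. These correlations describe 9 libraries in 3 groups and follow largely from the group means.

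Outside the members, 32 genes of the pathway were listed, of which 30 had a row and 18 were tested. With thrombin 1 was called higher and 3 lower, in PD03 against thrombin 2 higher and 2 lower, and in PD03 against control 1 higher and 2 lower. The shares called over all genes were 2.62% and 5.44%, 9.61% and 6.31%, and 4.9% and 4.07%, in the same order. The pathway genes had medians of -0.027, 0.13 and 0.013 on the log2 scale, beside -0.006, 0.011 and -0.004 for every gene tested. The called genes stood at the release of arachidonic acid, at the receptors and at the uptake and breakdown of prostaglandins.

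Of 9 genes for the release of arachidonic acid, 7 were tested; 1 was called higher and 1 lower with thrombin, 1 higher and 1 lower in PD03 against thrombin, and 1 lower in PD03 against control. Pla2g4a, the cytosolic phospholipase A2 that supplies cyclooxygenases, averaged 22.4 ± 2.13 CPM in Control, 35.9 ± 3.39 in Thrombin and 12.0 ± 2.46 in PD03 (SD, n = 3). The groups did not overlap, and its log2 fold changes were 0.68 (adjusted p = 1.0e-07), -1.59 (adjusted p = 2.9e-17) and -0.91 (adjusted p = 2.2e-09). It thus moved in the same direction as Ptgs1 and Ptgs2 in each comparison. Pla2g2a, a secreted phospholipase A2, averaged 23.3 ± 1.57, 11.5 ± 0.504 and 17.2 ± 0.726 CPM. It fell with thrombin (log2 fold change -1.02, adjusted p = 5.4e-12), and its rise in PD03 against thrombin, 0.5816, lay just past the fold threshold (adjusted p = 2.5e-06).

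Of 7 other synthase genes, 2 were tested and 0 were called in any comparison; Hpgds, Ptgds and Tbxas1, the synthases of prostaglandin D2 and thromboxane, had 1, 9 and 14 counts over the 9 libraries. Akr1b1, an aldose reductase that can make prostaglandin F2α, is named here after its values were seen. By edgeR its log2 fold changes were 0.29 (adjusted p = 2.5e-07), -0.577 (adjusted p = 2.3e-15) and -0.28 (adjusted p = 4.7e-07). All lay under the fold threshold, although the groups did not overlap. Of 6 other receptor genes, 3 were tested. Tbxa2r, the thromboxane receptor, averaged 5.50 ± 1.37 CPM in Control, 3.43 ± 0.689 in Thrombin and 13.7 ± 3.94 in PD03. It was the 1 receptor gene called lower with thrombin (log2 fold change -0.69, adjusted p = 0.0080), although Control and Thrombin libraries overlapped. It was also the 1 called higher in PD03, by 4.03-fold against thrombin (adjusted p = 1.1e-12) and by 2.50-fold against control (adjusted p = 1.5e-08).

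Of 5 genes for breakdown and transport, all were tested, and 1 was called in each comparison, lower each time. Slco2a1, the prostaglandin importer, averaged 26.1 ± 1.79 CPM in Control, 12.6 ± 0.553 in Thrombin and 15.4 ± 0.513 in PD03. It was 2.07-fold lower with thrombin (adjusted p = 8.9e-13) and 1.70-fold lower in PD03 than in control (adjusted p = 1.9e-09). In PD03 against thrombin it was 1.22-fold higher, under the fold threshold (adjusted p = 0.011). Ptgr1, a prostaglandin reductase, averaged 67.4 ± 1.38, 70.0 ± 3.56 and 45.2 ± 1.29 CPM and was 1.55-fold lower in PD03 than in thrombin (adjusted p = 1.1e-12).

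**Figure D5:**
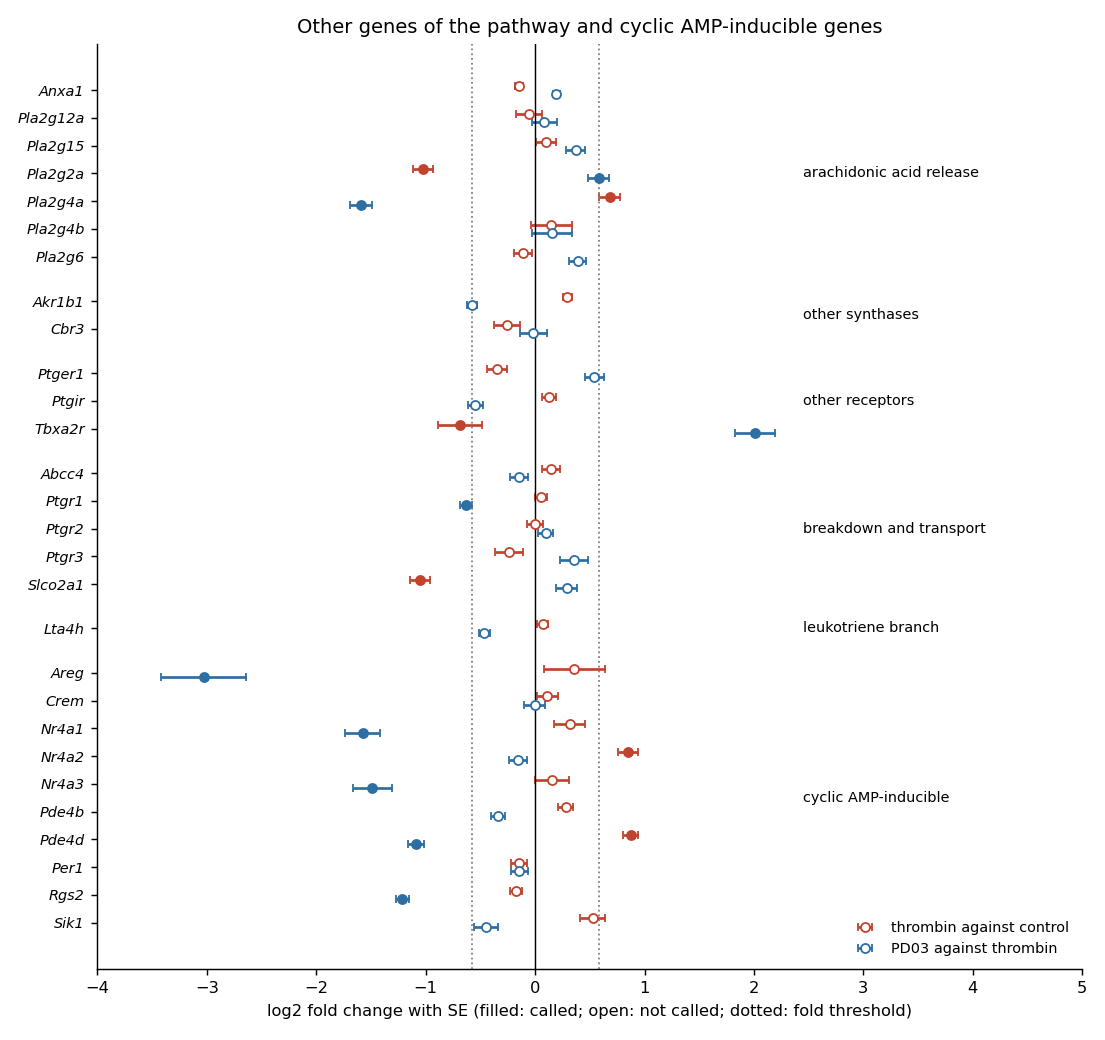
Log2 fold change with its SE (x axis) of the tested genes of the pathway outside the members and of cyclic AMP-inducible genes, for thrombin against control and PD03 against thrombin (colours). Filled points were called; Pla2g4a moved as the cyclooxygenase genes did, Slco2a1 and Pla2g2a fell with thrombin, and Tbxa2r was higher in PD03.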

How the data were processed

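RNA of 9 libraries of rat calvarial osteoblasts (3 each of Control, Thrombin and PD03) was analysed from the gene table that the authors deposited. Its raw counts per gene were made by the authors with fastp, HISAT2 and a read counter. The study's methods name Rnor_6.0 and featureCounts, the submitters' processing notes mRatBN7.2 and HTSeq 0.13.5, and which applies to the table is not settled. Its strand setting and annotation release were not given in the sources used here. FPKM values deposited by the authors equal the count divided by library total and a whole-number gene length in 19085 of 19085 genes (within 0.01 bases), so FPKM was used to set levels of different genes side by side and, as an alternative, to test groups with limma.

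Libraries were grouped by their labels. Counts of 13256 genes passing filterByExpr (minimum count 10) were scaled by TMM and fitted in edgeR 4.0.16 (R 4.3.3) as 1 model of 3 groups, and SE was taken from the log2 fold change and its F statistic. Common biological variation was 4.28%. Library totals ran from 15447832 to 19841468. Within groups, the counts of any pair of libraries differed beyond sampling noise (chi-square over its degrees of freedom 1.81 to 3.88), so none was counted as a repeat. The tests were checked first on simulated counts in which 200 genes changed. Shares were tested by exact permutation in scipy 1.17.1.

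The members and all gene lists (5 for the rest of the pathway, cyclic AMP-inducible genes and 8 sets of cell type markers) were chosen with earlier results of these data known. All members were named, and of each other list at most 4 called genes with the largest log2 fold change and at least 1 CPM in a group, plus single genes named after their values were seen. Alternatives were other scalings, filters, tests and thresholds, FPKM with limma 3.58.1, DESeq2 1.42.0, a replicate block and leaving out each library. The build without Col1a1 was added after seeing the data. Ptges and Ptgis had no matching row, so the planned share of Ptges among prostaglandin E synthases was not computed. Promoters came from RefSeq on GRCr8, whose coordinates were not joined to the deposited table.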

Additional observations from a re-analysis of the deposited data

How the results depend on the processing

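Of 138 recomputed counts of called members, 130 kept their value within 1.5 times; of 552 recomputed member fold changes, 529 kept direction and call, 12 reversed, 7 lost the call and 4 gained it. Ptgs2 kept its direction and call in all 23 alternatives of each comparison, with log2 fold changes from 1.36 to 1.65 with thrombin, from -3.61 to -3.35 in PD03 against thrombin and from -2.16 to -1.86 in PD03 against control. With a log2 fold change above 1 required, members called higher with thrombin numbered 1, lower with thrombin 0, higher in PD03 against thrombin 0 and lower in PD03 against control 1, because Ptgs1 (0.92 and -0.75) and Hpgd (-0.91 and 0.82) lie under that size. With glmTreat, members called lower with thrombin and higher in PD03 against thrombin were 0 each. On log2(FPKM + 1), where the log2 fold change of Hpgd is 0.45, members called higher in PD03 against thrombin were 0; the pseudocount shrinks low genes. By adjusted p alone, members called higher in PD03 against control were 1. The reversals were of values near 0 that were called in no setting. Leaving out each library gave Ptges3 with thrombin -0.0026 to 0.073, Ptger4 with thrombin -0.095 to 0.16, Ptger4 in PD03 against thrombin -0.15 to 0.11, Hpgd in PD03 against control -0.17 to 0.043 and Ptger4 in PD03 against control -0.051 to 0.097. The last was also -0.10 on library totals, -0.075 on log2(FPKM + 1) and -0.091 on log2(FPKM + 0.1). On counts in place of FPKM, the difference in the Ptgs2 share was -26.0 points in PD03 against thrombin and -16.7 points against control, and that in the Ptger4 share against control was -0.72 points, since counts are not per length.

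Library totals in place of TMM moved the median over all genes to -0.088 in PD03 against thrombin and to -0.12 against control. The share of all calls that were higher was then 46.5% in place of 60.4% in PD03 against thrombin, and 34.1% in place of 54.6% against control. On log2(FPKM + 1) these shares were 42.8% and 36.2%, and on log2(FPKM + 0.1) 46.3% and 34.3%. Over all genes, glmTreat called 147 higher and 313 lower with thrombin (347 and 721 in the reported fit), 671 and 380 in PD03 against thrombin (1274 and 836), and 286 and 213 against control (649 and 540). Requiring a log2 fold change above 1 gave 133 and 372, 626 and 309, and 281 and 238. By adjusted p alone the counts were 1867 and 1941, 3358 and 3250, and 2616 and 2673. On log2(FPKM + 1) they were 192 and 351, 537 and 717, and 245 and 431, and on log2(FPKM + 0.1) 865 were lower against control; on library totals 908 were. A mean count of at least 50 gave 256 and 480 with thrombin and 443 and 374 in PD03 against control. Over all genes, same-numbered libraries of different groups did not deviate together (correlations of -0.046 to 0.052, against -0.056 to 0.055 for different numbers). These correlations gave no sign that the numbers pair the libraries, but they cannot exclude pairing for single genes. A replicate block left the members called at 2 higher and 1 lower with thrombin, and 343 and 724 genes in all. Hpgd, with 29 to 68 counts per library, and Ptger2 and Ptger4 are the members whose depth limits precision most.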

Other observations

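Genes known to be induced through cyclic AMP, the messenger that EP2 and EP4 receptors raise, numbered 10, and all were tested; 2 were called higher with thrombin, 5 lower in PD03 against thrombin, and 1 higher and 4 lower in PD03 against control. Over all genes 2.62% were called higher with thrombin, 6.31% lower in PD03 against thrombin, and 4.9% higher and 4.07% lower in PD03 against control. Over the list the log2 fold changes had medians of 0.30, -0.77 and -0.25, against -0.006, 0.011 and -0.004 over all genes. The genes called higher with thrombin were Pde4d, a phosphodiesterase that degrades cyclic AMP (log2 fold change 0.87, adjusted p = 6.3e-14), and Nr4a2, an orphan nuclear receptor (0.85, adjusted p = 1.7e-10), which are named for the small count after their values were seen. Pde4d averaged 43.5 ± 0.758 CPM in Control, 79.6 ± 8.35 in Thrombin and 37.6 ± 4.43 in PD03, so it was also lower in PD03 against thrombin (log2 fold change -1.09, adjusted p = 5.0e-17). Nr4a2 stood at 16.3 ± 1.32, 29.4 ± 3.09 and 26.4 ± 1.85 CPM and was the 1 gene called higher in PD03 against control.

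The 4 genes called lower in PD03 against either group were Areg, Nr4a1, Nr4a3 and Rgs2, none of which was called with thrombin. Areg, which encodes the growth factor amphiregulin, averaged 2.05 ± 0.191 CPM in Control, 2.63 ± 0.650 in Thrombin and 0.318 ± 0.258 in PD03, with a log2 fold change of -3.03 in PD03 against thrombin (adjusted p = 1.4e-08). Nr4a1, another orphan nuclear receptor and early response gene, averaged 97.5 ± 27.3, 121 ± 38.4 and 40.9 ± 11.6 CPM (log2 fold change -1.58, adjusted p = 1.9e-11). Nr4a3, of the same family, averaged 23.2 ± 5.28, 25.6 ± 9.37 and 9.24 ± 2.51 CPM (log2 fold change -1.49, adjusted p = 2.2e-09). Rgs2, a regulator of G protein signalling, averaged 118 ± 4.75, 105 ± 6.25 and 45.2 ± 3.71 CPM (log2 fold change -1.21, adjusted p = 1.8e-21). Growth factor and Erk1/2 signals are also known to induce several genes of this list, so it does not measure cyclic AMP alone.

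The leukotriene branch, which uses the same arachidonic acid, had few counts. Of 5 genes, 1 was tested and 0 were called in any comparison. The lipoxygenase genes Alox5 and Alox15 had 14 and 1 counts over the 9 libraries, Alox5ap had 38 and Ltc4s had 2. Lta4h, an enzyme many cell types express, averaged 74.3 ± 2.23 CPM in Control, 78.0 ± 0.485 in Thrombin and 56.5 ± 1.97 in PD03, with a log2 fold change of -0.46 in PD03 against thrombin (adjusted p = 6.0e-10), under the fold threshold.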
